A study of Homo sapiens with 10 samples.

Results

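WM1617 is a metastatic melanoma cell line with mutant BRAF, and 2 of the 10 libraries of the series were compared here: the sensitive line and its resistant derivative (E+BRes), each taken by its title. The resistant line had been grown in encorafenib, an inhibitor of the BRAF kinase, and binimetinib, an inhibitor of the kinase MEK that BRAF activates, at doses raised from 1 to 200 nmol/l over 3 to 5 months, and it was kept in 200 nmol/l of the combination, whereas the sensitive line was the original line without the drugs. Polyadenylated mRNA was sequenced once per line and state, so each state is 1 culture with no replicate, and whether the resistant culture is a clone or a mixed population is not given in the sources used here. The other 8 libraries are the same pair of states of WM278, which came from the primary tumour of the same patient, of WM983A and WM983B, a primary and a metastatic line of 1 other patient, and of WM902B.

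The values are expected counts per gene, in which a read may count in fractions, and each gene was described by its CPM (its counts scaled to a library total of 1e+06) and by a log2 ratio, resistant over sensitive, for which 1 CPM was added to each value. The sensitive library held 13970608 counts and the resistant one 18033247, the largest of the 10 totals, which began at 13693922. Of 57955 genes listed, 16013 had at least 20 counts in either WM1617 library and were described. With 1 library per state no test of the state was possible in WM1617, and the 95% exact binomial intervals given for ratios cover counting error only. A level of 3 counts, equal to 0.215 CPM in the sensitive and 0.166 CPM in the resistant library, was taken as the smallest detectable one.

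BRAF is a kinase at the head of the cascade that runs from RAS through RAF, MEK and ERK to the genes of growth and cell division. In melanoma with mutant BRAF the cascade runs without its usual input, and the drugs interrupt it at RAF and at MEK. Known routes by which such cells regain ERK activity include more BRAF protein, altered forms of BRAF, mutations of RAS or MEK and receptor tyrosine kinases. Melanocytic cells are known by the transcription factors MITF and SOX10 and by pigment genes such as PMEL, MLANA, TYR and DCT.

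Both WM1617 libraries carried these melanocytic transcripts. PMEL stood at 2023 CPM in the sensitive and 1861 CPM in the resistant library, MITF at 629 and 511 CPM, and SOX10 at 345 and 327 CPM. MLANA was at 534 and 365 CPM, TYR at 228 and 153 CPM, and DCT at 709 and 969 CPM, so none of the 6 was 2-fold apart between the states. S100B, a calcium-binding protein of the same lineage, was at 41.2 and 100 CPM and was past 2-fold (log2 ratio 1.26). Of the markers of other cell types, those of endothelium summed to 0.971 and 0.509 CPM, and PTPRC, which marks leukocytes, had 4.99 and 2 counts, while CD3E, a marker of T cells, had none. Fibroblast markers summed to 13.3 and 21.0 CPM, most of it LUM (5.58 and 14.3 CPM) and PDGFRA (4.16 and 4.01 CPM), with COL3A1 under 0.1 CPM in both. Epithelial markers summed to 146 and 140 CPM, nearly all of it KRT18 and KRT10, and immune markers to 80.0 and 67.3 CPM, nearly all of it CD68. In RNA from a whole culture, fewer cells of a type and less RNA per cell cannot be told apart.

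Gene expression differed little between the states over most of the transcriptome. The median log2 ratio of the 16013 genes was -0.05 with an SD of 0.45 over genes, and 82.6% of them lay within 0.5 of 0. At least 2-fold higher in resistant WM1617 were 189 genes (1.18%) and at least 2-fold lower 391 (2.44%), so that 3.62% lay past 2-fold in either direction. By the same rule 10.4% of genes were higher and 5.39% lower in WM278, 16.1% and 18.7% in WM983A, 15.7% and 8.47% in WM983B, and 13.9% and 9.55% in WM902B. No test compared these shares, and they are side by side as 1 pair of libraries each. The count of higher genes depended on the value added before the log (337 with 0.1 added and 82 with 5 added), as did that of lower genes (625 and 104). Every one of the 82 and 104 was also past 2-fold with 1 added, which had to be so, since a smaller added value moves every ratio away from 0.

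**Figure D1:**
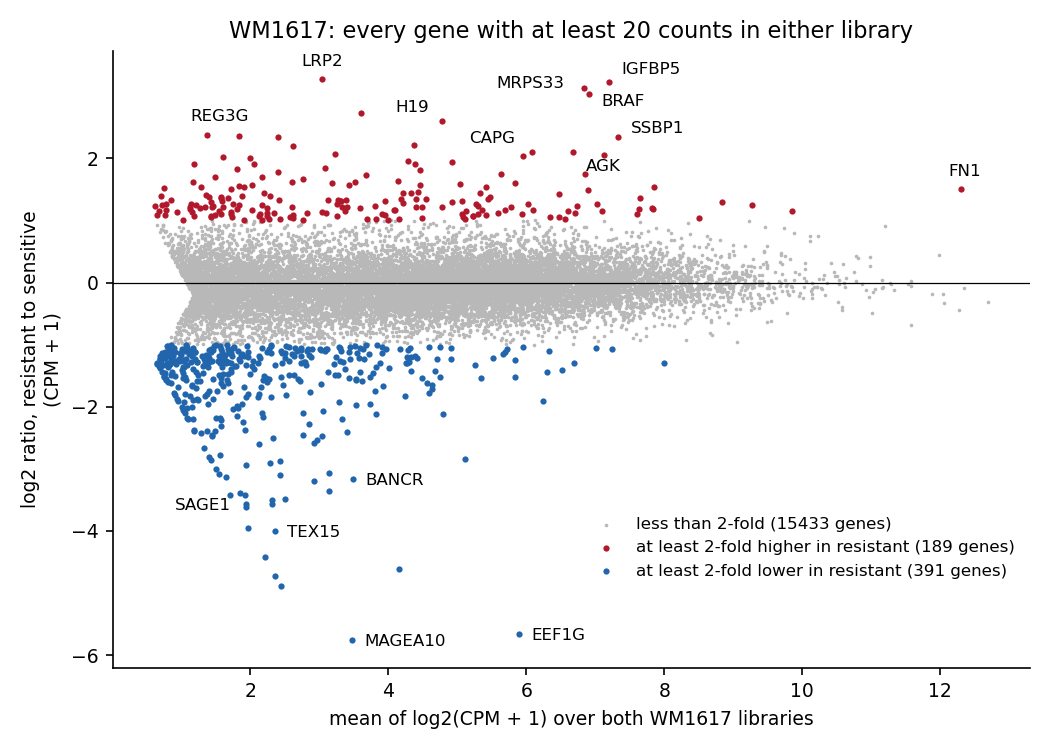
Each point is 1 of 16013 genes of WM1617, with the mean log2(CPM + 1) of both libraries on the x axis and the log2 ratio of resistant to sensitive on the y axis, above 0 for genes higher in resistant. The 189 genes at least 2-fold higher (red) include BRAF, MRPS33 and SSBP1 at a high level, and the 391 at least 2-fold lower (blue) lie mostly at low levels, with MAGEA10 and EEF1G at the bottom.

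The BRAF gene itself (ENSG00000157764, chr7:140719327-140924929 of GRCh38, minus strand, 7q34) had one of the largest ratios of all coding genes. BRAF had 574 counts (41.1 CPM) in sensitive and 6216 counts (345 CPM) in resistant WM1617, a ratio of 8.39 with a counting interval of 7.70 to 9.15. In the other 9 libraries BRAF lay between 16.6 and 69.2 CPM, so the resistant WM1617 library stood 4.98-fold above the next highest. The log2 ratio of BRAF was 3.04 in WM1617, -0.03 in WM278, -1.25 in WM983A, 0.76 in WM983B and 0.46 in WM902B. Reads per gene do not show which part of BRAF or which allele they came from.

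AGK (ENSG00000006530, chr7:141551278-141655244, plus strand), a mitochondrial lipid kinase whose gene lies 0.83 Mb from BRAF, was higher too. AGK went from 679 counts (48.6 CPM) to 3829 counts (212 CPM), a ratio of 4.37 (counting interval 4.03 to 4.75), and lay between 20.6 and 60.5 CPM in the other 9 libraries. Its log2 ratio was 2.10 in WM1617, against 0.11 in WM278, -1.51 in WM983A, -0.42 in WM983B and -0.84 in WM902B. For both genes the resistant WM1617 library was above every other library of the series.

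The higher level was not limited to BRAF and AGK but went with position along the chromosome. Within 2 Mb of BRAF, 29 genes passed the count filter, of which 12 were at least 2-fold higher against 1.18% of all genes, and none was 2-fold lower against 2.44%. Their log2 ratios ran from 0.10 to 3.12 with a median of 0.71, and the median was 1.15 over the 17 genes within 1 Mb and 0.68 over the 54 genes within 5 Mb. Over the same 29 genes the median was -0.03 in WM278, -0.46 in WM983A, -0.03 in WM983B and 0.06 in WM902B.

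The ratios stepped up at BRAF and came down in stages. The 19 genes that start in the 2 Mb below BRAF had a median log2 ratio of 0.61, with HIPK2, a stress-response kinase, at the top (1.19). The neighbours that adjoin BRAF on that side, NDUFB2 (a subunit of respiratory complex I, 0.67) and ADCK2 (0.68), were among them, and NDUFB2 overlaps BRAF on the opposite strand, so that without strand their shared reads cannot be told apart. Measured from the low-coordinate end of BRAF to 2 Mb above it, all 9 genes were at least 2-fold higher, with a median of 2.10. The window of 29 genes reached 2 Mb past the other end of BRAF and so also held EPHB6 (log2 ratio 0.60). EPHB6 lay 2.14 Mb above and is counted here among the genes from 2 to 5 Mb. By CPM ratio, most of the 9 genes lay at 2 sizes, which the counting intervals separated only in part. BRAF, MRPS33 (a protein of the mitochondrial ribosome, 528 and 6085 counts, log2 ratio 3.12) and TMEM178B (52 and 547 counts, 2.73) had CPM ratios of 8.39, 8.93 and 8.16. Farther on, AGK, KIAA1147 (DENND11 in GENCODE release 44, 201 and 1051 counts, 1.94), SSBP1 (a DNA-binding protein of the mitochondrion, 984 and 6530 counts, 2.35), MGAM2 (50 and 329 counts, 2.07) and MGAM (14 and 75 counts, 1.37) had CPM ratios from 4.05 to 5.14. The counting intervals of BRAF and MRPS33 did not reach those of AGK, KIAA1147 and SSBP1, whereas that of TMEM178B (6.12 to 11.1) spanned a wider range. The interval of MGAM (2.33 to 7.95) reached that of BRAF, and those of MGAM and MGAM2 (3.78 to 7.01) overlapped that of TMEM178B. The low-count RP5-894A10.6, which overlaps KIAA1147, had 1.51 and 29.9 counts (CPM ratio 15.3, counting interval 2.95 to 100). With 5 CPM added, MGAM (0.61) and RP5-894A10.6 (0.38) were within 2-fold. TMEM178B was also higher in resistant WM278 (1.95 and 29.2 CPM, 3.36) and WM983B (0.205 and 127 CPM, 6.73).

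Beyond these, the 16 genes from 2 to 5 Mb above BRAF all had log2 ratios above 0, with a median of 0.76, and 5 were at least 2-fold higher (against 1.18% of all genes). Among them were GSTK1, a glutathione transferase (868 and 3821 counts, 1.75), the caspase CASP2 (742 and 2606 counts, 1.43), ZYX, the focal adhesion protein zyxin (1.26), and the ion channel regulator TCAF1 (1.22). After this run no gene passed the filter over 4.19 Mb, and of the 70 genes from there to the end of the long arm only 6 were above 0, with a median of -0.51. On the other side the median stayed above that of all genes for some distance, at 0.28 from 2 to 5 Mb, 0.42 from 5 to 10 Mb and 0.38 from 10 to 15 Mb below BRAF, and was -0.31 from 15 to 20 Mb and -0.20 over the remaining 605 genes of chromosome 7. In all, 19 of the 189 genes past 2-fold higher (10.1%) lay within 5 Mb of BRAF, against 54 of all 16013 genes past the filter. RNA alone does not give DNA copies, and copy number was not analysed here.

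**Figure D2:**
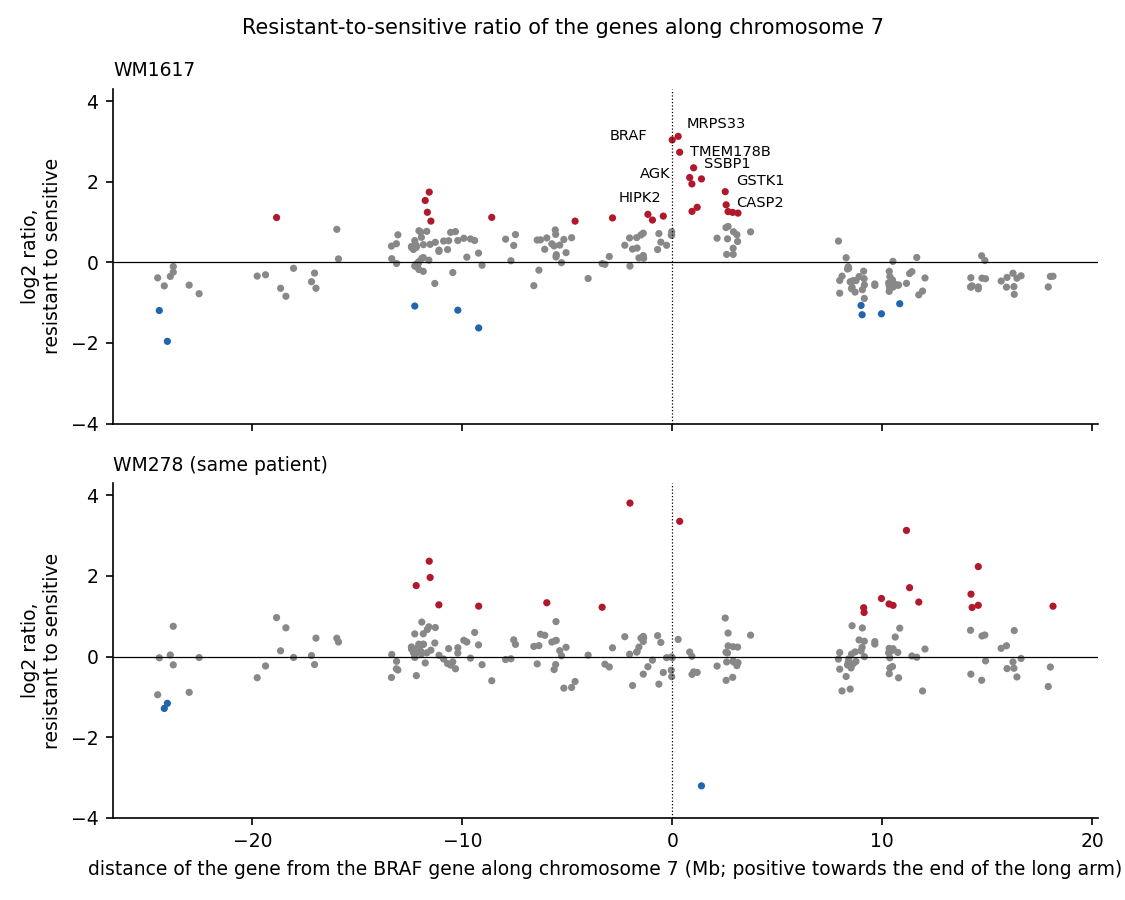
Log2 ratio, resistant over sensitive, of the genes of chromosome 7 nearest to BRAF against their distance from the BRAF gene in Mb, in WM1617 (top) and in WM278 of the same patient (bottom), with red for at least 2-fold higher and blue for at least 2-fold lower. In WM1617 the points climb to 3.04 and 3.12 at BRAF and MRPS33, stay above 0 over the 16 genes from 2 to 5 Mb and lie mostly below 0 farther on, whereas in WM278 most genes at BRAF scatter around 0 (median -0.03 over the 29 within 2 Mb).

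**Figure D3:**
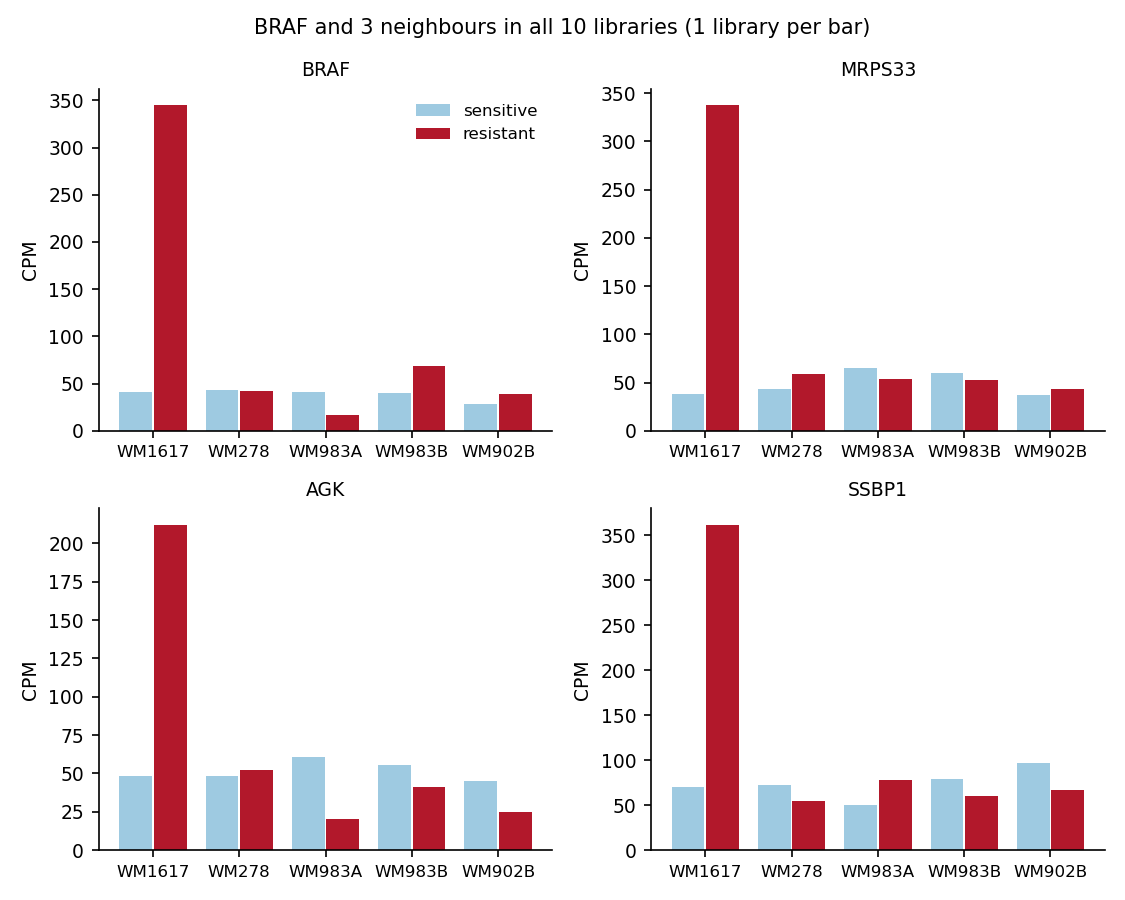
CPM of BRAF, MRPS33, AGK and SSBP1 in all 10 libraries, with sensitive libraries in light blue and resistant ones in red, 1 library per bar and so no error bars. For each gene the resistant WM1617 bar stands above all 9 others, at 345, 337, 212 and 362 CPM.

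Seen along the whole genome, this stretch was the highest. A running median was taken over 15 neighbouring genes past the filter, which gave 15516 windows whose 1st and 99th percentile were -0.54 and 0.45. The highest median, 1.75, belonged to the window from MKRN1 to GSTK1 that holds BRAF, and all 16 windows at or above 1 were on chromosome 7. Among windows that do not overlap, the adjoining part of chromosome 7 (0.76, TMEM139 to AC005229.7) came next, then chromosome 21 (0.69, with COL6A1, COL6A2 and S100B), chromosome 15 (0.68, with ALDH1A3 and CHSY1) and chromosome 18 (0.64, TCF4 to PMAIP1). By chromosome, with Y left out, the median was highest on chromosome 21 (0.37 over 152 genes) and chromosome 18 (0.23 over 237 genes). It was lowest on chromosome 7 itself (-0.164 over 814 genes), where 29 genes were at least 2-fold higher and 29 lower.

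The rest of the RAS-RAF-MEK-ERK cascade did not share the ratio of BRAF. Of 21 listed members, all past the filter, BRAF was the only one past 2-fold, against 3.62% of all genes, and the median was -0.04. Its close relative ARAF was at 38.8 and 44.7 CPM (log2 ratio 0.20). MAP2K1 and MAP2K2, the genes of MEK, had log2 ratios of 0.31 and -0.04, MAPK3, a gene of ERK, -0.41, and NRAS 0.01. The lowest were KSR1, a scaffold of the cascade (7.56 and 4.16 CPM, -0.73), and MAP3K8, a kinase that can activate MEK without RAF (5.57 and 3.02 CPM, -0.71). The log2 ratio of MAP3K8 was 2.93, 1.97, 1.93 and 2.90 in WM278, WM983A, WM983B and WM902B.

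Target and feedback genes of ERK, which report the output of the cascade, were close to their sensitive level in resistant WM1617. Of 26 members, 1 was at least 2-fold higher (against 1.18% of all genes), none 2-fold lower, and the median was -0.01. The ERK phosphatase DUSP6 was at 214 and 166 CPM (log2 ratio -0.36), DUSP4 at 714 and 524 CPM (-0.45), and SPRY4, an inhibitor of receptor signalling, at 262 and 268 CPM (0.03). CCND1, the cyclin D1 that drives entry into the cell cycle, was at 856 and 1437 CPM (0.75), and the nuclear ERK phosphatase DUSP5 at 41.0 and 89.1 CPM (1.10). Over the same 26 genes the median log2 ratio was -1.18 in WM278, -1.40 in WM983A, -0.19 in WM983B and -1.62 in WM902B. Of 12 AP-1 subunits, transcription factors of growth and stress signals, none was past 2-fold in WM1617 (against 3.62% of all genes), with a median of 0.03. FOS was at 49.1 and 63.0 CPM and JUN at 5.30 and 4.49 CPM. The 23 genes of replication and mitosis stayed within 0.6 of 0, from MCM7 (-0.57) to MKI67 (0.32).

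The receptor tyrosine kinases, listed with NGFR, had a median log2 ratio of -0.08 and ranged from -2.31 to 0.83. Of 22 listed, 17 passed the filter, none was 2-fold higher and 4 were 2-fold lower (against 1.18% and 2.44% of all genes). MET, the receptor of hepatocyte growth factor, went from 354 to 104 counts (25.3 to 5.77 CPM, log2 ratio -1.96), and EGFR from 62.1 to 15 counts (4.45 to 0.83 CPM, -1.57). ROR2, a receptor of WNT5A, went from 78.4 to 6 counts (-2.31), and NTRK2 from 21 to 1 count (-1.25), a sensitive-to-resistant ratio of 27.1 with a counting interval from 4.36 to 1121. EGFR, ROR2 and NTRK2 passed the filter only through the sensitive library. With 5 CPM added, EGFR (-0.70), ROR2 (-0.99) and NTRK2 (-0.36) were within 2-fold. AXL, which marks an undifferentiated state of melanoma, was at 8.08 and 9.45 CPM (0.20), and IGF1R at 158 and 194 CPM (0.29). ERBB3 was at 115 and 149 CPM (0.37), and its log2 ratio was -0.07 in WM278 but -5.97, -4.22 and -7.03 in WM983A, WM983B and WM902B.

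Among the 21 melanocyte genes past the filter, 1 was 2-fold lower (against 2.44% of all genes) and none higher, with a median of -0.09. This was MLPH, which tethers pigment granules (59.6 and 23.1 CPM, -1.33). TYRP1 and OCA2, listed members with under 20 counts in both libraries, were not described. The median over the same 21 genes was -0.11 in WM278, -3.85 in WM983A, -1.26 in WM983B and -1.76 in WM902B.

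**Figure D4:**
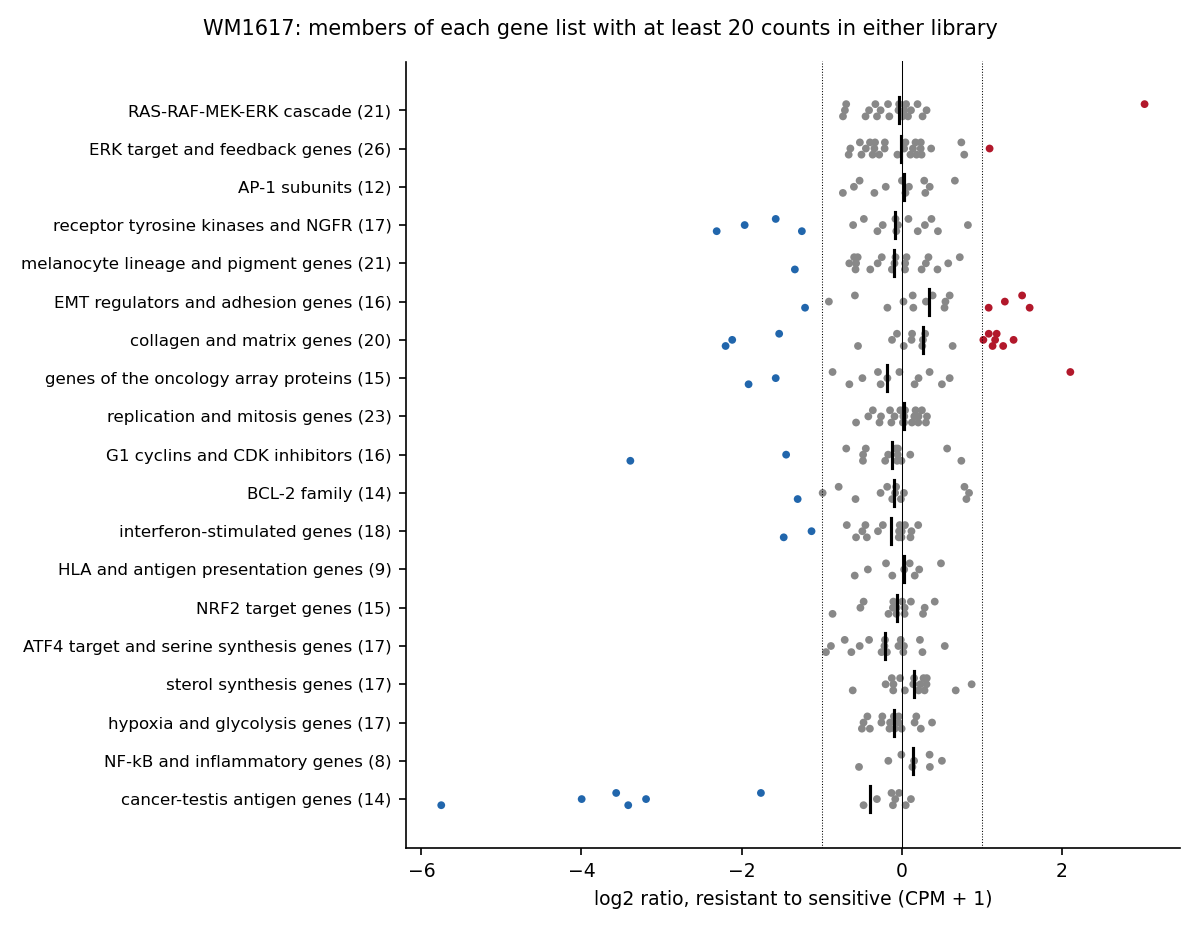
Log2 ratio of resistant to sensitive in WM1617 for the members of 19 gene lists with at least 20 counts in either library, with the number of members in brackets, the median as a black bar and dotted lines at 2-fold. BRAF stands alone at 3.04 in its cascade, the matrix and adhesion lists spread to both sides, and the cancer-testis list reaches down to -5.75.

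Adhesion and matrix genes past 2-fold lay on both sides. Of 16 genes of adhesion and epithelial-mesenchymal transition (EMT) past the filter, 4 were higher and 1 lower (against 1.18% and 2.44% of all genes), with a median of 0.35. FN1, the matrix protein fibronectin, went from 41736 to 153129 counts (2987 to 8492 CPM, log2 ratio 1.51). CDH2, N-cadherin, went from 446 to 1784 counts (31.9 to 98.9 CPM, 1.60), and TNC, the matrix protein tenascin C, from 4067 to 12872 counts (291 to 714 CPM, 1.29). TGFBI was at 0.93 and 3.10 CPM (1.09), and the growth factor TGFB2 was lower (4.95 and 1.58 CPM, -1.21). The transcription factors of EMT differed less: SNAI2 0.14, ZEB1 0.15, TWIST1 0.30, ZEB2 0.39 and SNAI1 0.60.

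Of 20 collagen and matrix genes past the filter, 7 were higher and 3 lower (against 1.18% and 2.44%), with a median of 0.26. The 3 chains of collagen VI were on the higher side, COL6A1 with 131 and 300 CPM (1.19), COL6A2 with 65.4 and 134 CPM (1.02) and COL6A3 with 2.00 and 6.91 CPM (1.40). MMP2, a gelatinase, was at 28.2 and 61.2 CPM (1.09), and the collagenase MMP1 at 1.71 and 5.09 CPM (1.17). POSTN (0.29 and 1.83 CPM, 1.14) and COL5A1 (1.16 and 4.21 CPM, 1.27) were higher at low levels. The lower members were chains of the basement membrane collagen IV, COL4A1 (37.3 and 12.3 CPM, -1.53), COL4A2 (56.6 and 12.3 CPM, -2.12) and COL4A5 (53.7 and 1 counts, a ratio of 69.4 with a counting interval of 11.99 to 2803). COL6A1 and COL6A2 lie side by side at the end of 21q, in the window with the median of 0.69. With 5 CPM added, all of these matrix genes but COL6A1, COL4A1 and COL4A2 were within 2-fold, as were TGFBI and TGFB2. The fibroblast marker LUM, a matrix proteoglycan, was higher too (78 and 257 counts, 1.21), DCN, THY1 and FAP stood at 9 counts or fewer in each library, and the part of other cell types in the matrix values was not tested.

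Several single genes stood out beyond any list. LRP2, the endocytic receptor megalin, had 23 and 445 counts (1.64 and 24.7 CPM) and the highest log2 ratio of all coding genes (3.28), and it was at most 2.02 CPM in the other 9 libraries. IGFBP5, a secreted binding protein of insulin-like growth factors, had 656 and 8055 counts (47.0 and 447 CPM, 3.22). IGFBP5 was higher in the resistant library of every line, with log2 ratios of 2.28 in WM278, 1.78 in WM983A, 3.61 in WM983B and 0.18 in WM902B. REG3G (ENSG00000143954, chr2:79025686-79028505), a secreted antimicrobial lectin of the gut, had 2 counts in sensitive and 88.7 in resistant WM1617, with a CPM ratio of 34.4 whose counting interval ran from 9.27 to 289. The level in resistant WM1617 was 4.92 CPM, and none of the other 9 libraries exceeded 0.236 CPM. Of the other REG lectins, REG1A had 1 and 5 counts, and REG1B, REG3A and REG4 had none. With 5 CPM added before the log, the log2 ratio of REG3G was 0.95, below 2-fold, and with 0.1 added it was 4.37.

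RHD, the gene of the Rh blood group D antigen, had 18.7 and 196 counts (2.34), and ITIH5, a hyaluronan-binding protein, 120 and 785 counts (2.21). LINC01314, which GENCODE release 44 lists as the coding gene CTXND1, had 26 and 220 counts (2.21). CAPG, an actin-capping protein and one of the proteins on the oncology array of the study, had 441 and 2514 counts (31.5 and 139 CPM, 2.11), and its log2 ratio was below 0 in all 4 other lines, from -1.78 to -0.34. In WM278 CAPG was near 0 in both states, at 0.530 and 0.213 CPM. Of the other array genes, the matrix glycoprotein SPP1 was lower (2039 and 686 counts, -1.91), as was EGFR. Of all 15 array genes past the filter, 12 were within 2-fold, where 3.62% of all genes were past it.

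Cancer-testis antigens, genes normally expressed in germ cells and often reactivated in melanoma, held the lowest values. Of 24 listed, 14 passed the filter, 6 were at least 2-fold lower (against 2.44% of all genes) and none higher, with a median of -0.39. MAGEA10, TEX15, SAGE1 and CT45A10 passed the filter only through the sensitive library, which by itself favours a lower ratio. SAGE1, CT45A10 and CT45A1 also lie in the same stretch of the X chromosome. The 6 are therefore not independent members to be read against the share of all genes. MAGEA10 went from 1121 to 9.14 counts (80.3 to 0.51 CPM), a sensitive-to-resistant ratio of 158 with a counting interval of 84.4 to 353. TEX15, a gene of meiosis, went from 271 to 5 counts, a ratio of 70.0 (counting interval 29.6 to 217), and MAGEA1 from 173 to 53.3 counts (-1.76). Other members of the same gene family, which lies on the X chromosome, did not follow: MAGEA3 was at 51.7 and 53.6 CPM (0.05), MAGEA6 at 107 and 116 CPM (0.12), MAGEA12 at 132 and 123 CPM (-0.11) and MAGEA4 at 158 and 114 CPM (-0.47). PRAME was at 395 and 319 CPM (-0.31). Counted as a family, 5 GAGE cancer-testis genes passed the filter, of which 1 was higher and 0 lower (against 1.18% and 2.44% of all genes). The higher one was GAGE12J (124 and 675 counts, 1.96), which is not among those listed, and the family sum went from 478 to 542 CPM (0.18). MAGEA copies are similar in sequence, and how reads shared by copies were assigned is not given in the sources used here.

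SAGE1 and the CT45A genes formed the lowest stretch of the genome by the running median (-1.46, on the X chromosome from FAM127B to SAGE1). SAGE1 had 170 counts in sensitive and 2 in resistant WM1617, a ratio of 110 with a counting interval of 29.9 to 913. CT45A10 had 160 and 3 counts, a ratio of 68.8 (counting interval 23.1 to 337), and CT45A1 306 and 27.1 counts (log2 ratio -3.19). All 9 CT45A genes, which are close copies, were at least 2-fold lower (of these, CT45A1 and CT45A10 also with 5 CPM added), and summed to avoid splitting reads between copies they went from 733 to 57.7 counts (52.5 to 3.20 CPM, log2 ratio -3.67). The summed log2 ratio in the other lines ran from -0.29 to 0.27, but these genes were near 0 in most of those libraries: CT45A10 was at 4.12 and 3.45 CPM in WM278 and at most 0.647 CPM in the other 3 lines. CT45A10 and SAGE1 lie head to head, with RefSeq starts 272 bases apart on opposite strands, and the sequence between them is shown because both genes were lower. In GENCODE release 44 SAGE1 and CT45A10 overlap on opposite strands, so without strand the reads they share cannot be told apart. It is the 250 bases before the SAGE1 start at chrX:135893466-135893715 of GRCh38.p14, plus strand, from RefSeq, with each match to CCGGAA, the core that ETS transcription factors bind, in capitals.
SAGE1: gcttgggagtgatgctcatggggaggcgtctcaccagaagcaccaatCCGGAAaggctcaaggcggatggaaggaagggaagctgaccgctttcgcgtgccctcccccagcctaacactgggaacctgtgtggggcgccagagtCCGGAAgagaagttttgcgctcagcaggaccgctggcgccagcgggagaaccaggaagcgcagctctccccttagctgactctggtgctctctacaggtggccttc
The sequence holds 2 matches to CCGGAA and none to its reverse complement TTCCGG, and 13 CG pairs, where 14.5% of the 35116 RefSeq promoters hold a match to either in the 250 bases before the start. A match is a description of letters and not of a bound site.

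**Figure D5:**
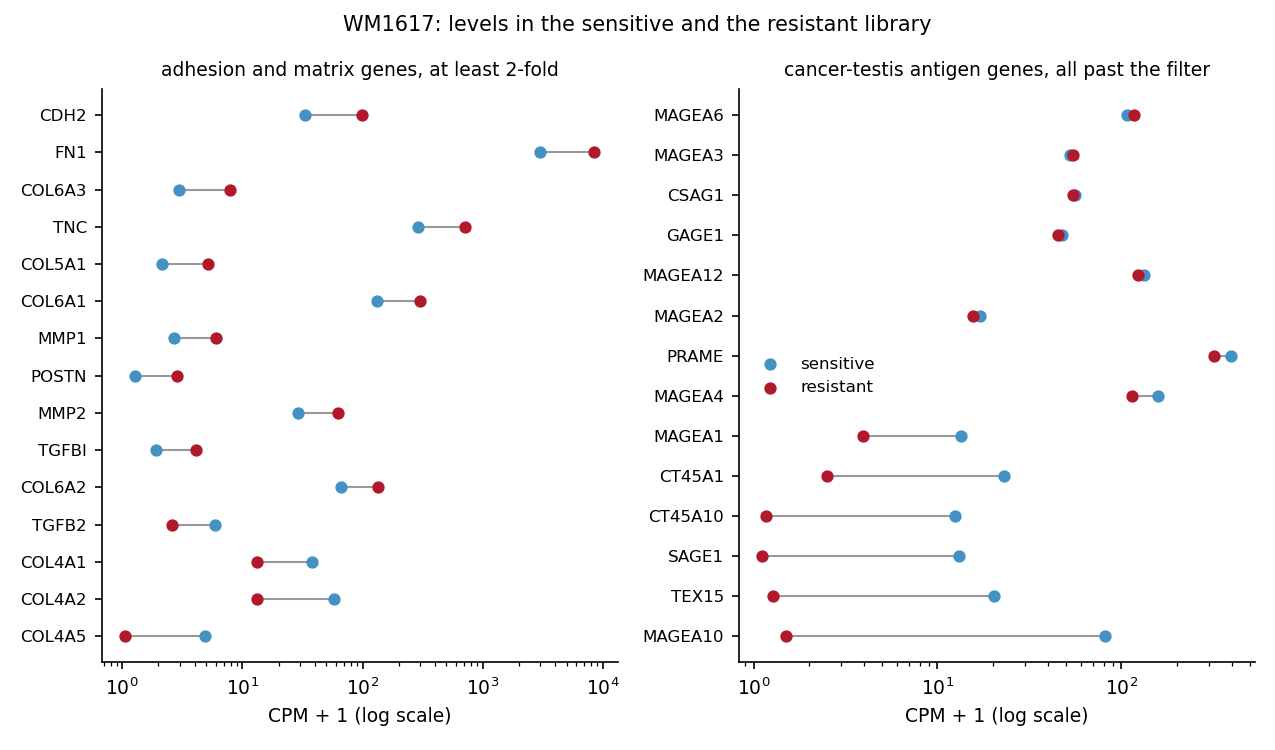
CPM + 1 on a log axis in sensitive (blue) and resistant (red) WM1617, for the adhesion and matrix genes past 2-fold (left) and for all 14 cancer-testis genes past the filter (right), with 1 library per point. On the left 11 of 15 genes are higher in resistant, and on the right MAGEA10, TEX15, SAGE1, CT45A10, CT45A1 and MAGEA1 are lower while the others nearly coincide.

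Other coding genes at the lower end came from several functions. BARX1, a homeobox factor, went from 226 to 8 counts (log2 ratio -3.57), FBN2, the matrix protein fibrillin-2, from 383 to 31.7 counts (-3.36), and the lipoprotein receptor gene LRP3 from 250 to 12.5 counts (-3.48). CDK14, a kinase that acts with cyclin Y, went from 149 to 2.07 counts, a ratio of 93.2 with a counting interval of 26.2 to 801. CACNA2D1, a subunit of calcium channels, had 115 counts in sensitive and 1 in resistant WM1617, with a ratio of 149 and a counting interval of 26.1 to 5914. TMEM246 (PGAP4 in GENCODE release 44) went from 219 to 8.5 counts (-3.50). CCND2, cyclin D2, went from 24 to 0 counts and was at least 10.3-fold lower against the limit of 3 counts, with a counting interval of the ratio that begins at 7.77, and with 5 CPM added it was within 2-fold (-0.43).

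EEF1G, a subunit of translation elongation factor 1, had 5895 and 134 counts (422 and 7.41 CPM, -5.65), but RP11-864I4.1, which overlaps it on the same strand, had 7197 and 17202 counts (0.89). Summed, they had 937 and 961 CPM and a log2 ratio of 0.04, so the total over both did not share the difference of EEF1G alone. The gamma protocadherins, which share their last exons, divided in a similar way. Of 22 past the filter, 3 were at least 2-fold higher, among them PCDHGC3 (413 and 2241 counts, 2.04), and 7 were at least 2-fold lower (against 1.18% and 2.44% of all genes), while their sum went from 102 to 189 CPM (0.88). The values of single members of such groups are uncertain.

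Gene lists of other responses stayed near 0. Of 18 interferon-stimulated genes past the filter, 2 were lower (against 2.44% of all genes), the RNA sensor IFIH1 (79.2 and 25.3 counts, -1.47) and OAS1 (209 and 114 counts, -1.13). With 5 CPM added, IFIH1 (-0.74) and OAS1 (-0.82) were within 2-fold. The log2 ratio of OAS1 was 1.88, 1.32, 1.94 and 1.97 in WM278, WM983A, WM983B and WM902B. Of 14 BCL-2 family genes, 1 was lower (against 2.44%), the death agonist BID (29.0 and 11.2 CPM, -1.30), and BCL2L11, the agonist BIM, was at 23.0 and 40.3 CPM (0.79). None of 15 NRF2 targets, 17 ATF4 targets, 17 sterol synthesis genes, 17 hypoxia and glycolysis genes, 8 genes of NF-kB and inflammation and 9 genes of antigen presentation was past 2-fold. Their medians lay between -0.21 and 0.16. With 3.62% of all genes past 2-fold, none in a list of this size is close to the share of all genes. Of 16 genes in the list of G1 cyclins and CDK inhibitors, CDK14 and CCND2 were the 2 past 2-fold, against 3.62% of all genes. CDK14, the partner of cyclin Y, is itself neither a cyclin nor a CDK inhibitor. The genes with most reads, not corrected for gene length, were FN1, GAPDH (7392 and 5938 CPM, -0.32), the mitochondrial pseudogene MTCO1P12 (5784 and 4234 CPM, -0.45), ENO1 (5359 and 5053 CPM, -0.09) and the neuropeptide precursor VGF (4751 and 3786 CPM, -0.33).

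Whether the WM1617 change differs from the mean change of the other 4 lines was tested by edgeR's quasi-likelihood test over all 10 libraries, with terms for cell line, state and state within WM1617, in which the lone WM1617 change is assumed to vary like those of the other lines. The fit takes the lines as independent, although WM983A and WM983B share a patient, as do WM1617 and WM278. Of 17113 genes tested, none passed 0.05 in edgeR after Benjamini-Hochberg adjustment (0.0%), the smallest adjusted p being 0.978. An unadjusted edgeR p of up to 0.05 was found for 579 (3.38%). In 227 of these 579 the WM1617 change was above the mean change of the other 4 lines. DESeq2 called 34. The BRAF change exceeded the mean of the others by 3.14 on the log2 scale and that of AGK by 2.87, each with a Benjamini-Hochberg adjusted p of 1 in edgeR. The smallest p in edgeR belonged to RP11-63M22.2, a long non-coding RNA with 284 counts in sensitive and 0 in resistant WM1617, at least 122-fold lower against the limit of 3 counts, with a counting interval that begins at 98.7. MRPS33 (difference 3.16), CAPG (3.39), EEF1G (-5.71), PALM (-7.71) and OAS1 (-3.08) were among the 10 genes of smallest p in edgeR, none of them past the adjusted threshold.

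Of the 34 genes called by DESeq2's Wald test in the same design (0.199%), 12 had a WM1617 change above the mean of the other 4 lines and 22 below it. This is the sign of the difference and not of the WM1617 change. Among the 12, PLA1A (-0.69), TRIM51 (-0.43) and RAB38 (-0.09) had log2 ratios below 0 in WM1617. Of the 34 genes, 18 were past 2-fold in WM1617 itself. Of these 34, 3 lay within 5 Mb of BRAF, namely MRPS33, MGAM2 and CASP2, with DESeq2 adjusted p of 3.7e-05, 0.000322 and 0.0109. The DESeq2 adjusted p was 0.146 for BRAF and 0.0772 for AGK. Of all 16013 genes past the WM1617 count filter, 54 lay within 5 Mb of BRAF. EEF1G, CAPG, OAS1, TNC and MAP3K8 were also among the 34. For EEF1G, the sum with the overlapping RP11-864I4.1 had a log2 ratio of 0.04 in WM1617. MAP3K8 was within 2-fold in WM1617 (-0.71) and at 1.93 to 2.93 in the other lines. The tools therefore differ on whether any gene of WM1617 stands apart from the other lines, and each has 1 WM1617 change to judge from.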

How the data were processed

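mRNA of 10 libraries was sequenced with single-end reads of 75 cycles, and the authors used HISAT2 for alignment against GRCh38, then StrandNGS for the values per gene. Tool versions, the gene annotation, strand handling and the assignment of shared reads are not given in the sources used here. The values used are the expected counts the authors deposited for 57955 Ensembl genes, not normalized. The authors' second column, a log2 ratio to the sensitive library of each line, was not used. Samples were grouped by title. CPM used each library's total, and log2 ratios had 1 CPM added, over genes with at least 20 counts in either WM1617 library. Intervals of ratios are exact (Clopper-Pearson). In the sensitive WM983B library, 455 values were held as dates, so these genes were left out of fits across lines. Those fits used rounded counts, filterByExpr, TMM and edgeR 4.0.16 (glmQLFit, glmQLFTest, two-sided, Benjamini-Hochberg), or DESeq2 1.42.0, in R 4.3.3. Ratios and plots used Python 3.11.15 with pandas 2.3.3, SciPy 1.17.1 and matplotlib 3.10.9. The fits and the intervals were tested on simulated data. Positions come from GENCODE release 44 (168 genes had none), and promoters from RefSeq.

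The comparison, the gene lists and the alternatives were chosen with earlier results of these data known. Named are BRAF, AGK and REG3G, genes within 2 Mb of BRAF, the 12 highest and 12 lowest coding genes, list members past 2-fold, BRAF pathway members, up to 4 list members of highest CPM, the 10 smallest p of the test across lines, the extreme running medians and the 5 genes of highest CPM. Other genes were named after their values were seen. Some genes that this rule names are not reported here. None of the 13 listed mitochondrially encoded genes is in the tables used here. Alternatives were other added values, scalings, count filters, windows and lines left out.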

Additional observations from a re-analysis of the deposited data

Results flagged for a closer look

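For 14 named genes past 2-fold in WM1617, the log2 ratio had the opposite sign in all 4 other lines. Of all 580 genes past 2-fold, 96 had the opposite sign in all 4 other lines and 39 the same sign in all 5. These counts were not taken over all genes, so no comparison is drawn from them. No count filter was applied in the other lines, and some signs of the 14 rest on values near 0. BARX1 was at 0 and 0.0609 CPM in WM278 and at 0 and 0.0677 CPM in WM983B. MGAM2 was at 0.193 and 0.0668 CPM in WM902B, and CAPG at 0.530 and 0.213 CPM in WM278. On the higher side in WM1617 were CAPG (2.11), MGAM2 (2.07), CDH2 (1.60), ALDH1A3 (1.53), CASP2 (1.43), MGAM (1.37), TNC (1.29) and SLC37A3 (1.15), a sugar phosphate transporter gene 0.43 Mb below BRAF. On the lower side were BARX1 (-3.57), AC069368.3 (-2.48), ROR2 (-2.31), PALM (-1.46), BID (-1.30) and OAS1 (-1.13).

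TNC, OAS1 and PALM were past 2-fold in the opposite direction in each of the other lines. The log2 ratio of TNC was -2.31 in WM278, -6.11 in WM983A, -3.52 in WM983B and -5.26 in WM902B, and that of PALM, a membrane-associated phosphoprotein, was 2.86, 4.29, 2.93 and 2.49 in the same order. In the test of the difference, 12 of these genes had a Benjamini-Hochberg adjusted p of 1 in edgeR, and BARX1 and ROR2 did not pass its count filter, so their difference was not tested. In DESeq2 the adjusted p was 1.1e-06 for PALM, 0.000322 for MGAM2, 0.000500 for OAS1, 0.00223 for CAPG, 0.0109 for CASP2, 0.0210 for TNC and 0.0221 for AC069368.3. The other lines differ from each other in the size of these changes, as they do for BARX1, whose log2 ratio was 1.86 in WM983A and from 0.09 to 0.17 in the other 3.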

How the results depend on the processing

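The log2 ratios of BRAF and AGK stayed between 2.92 and 3.11 and between 2.02 and 2.18 under every added value, scaling and count filter tried. The number of genes at least 2-fold higher was 337 with 0.1 CPM added and 82 with 5 added, and that of lower genes was 625 and 104, or 166 with at least 100 counts in either library. REG3G had a log2 ratio of 4.37 with 0.1 added and 0.95 with 5 added. The median around BRAF was 0.33 with at least 1 count in either library, since more genes at low counts enter. Of 79 named genes past 2-fold, 28 were not with 5 added, and 0 were lost with either other scaling. The other settings could not lose a gene. A smaller added value moves ratios away from 0, a count filter leaves them unchanged, and genes that failed a filter were not counted as lost. EEF1G reversed to 0.037 when summed with the overlapping RP11-864I4.1, a sum chosen after seeing the data, as was that of the CT45A genes. Of the other values of single genes and list medians, 1208 moved by less than their counting or rank interval and 190 by more. edgeR TMM and DESeq2 scaling shifted the median of all genes by 0.07 and 0.05.

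Across lines, DESeq2 called 34 genes where edgeR called 0, in the full fit, with DESeq2 size factors in edgeR, without the filter and without any 1 line or both WM983 lines. Without 1 line at a time the BRAF difference ran from 2.77 to 3.41 and that of AGK from 2.63 to 3.12. These fits hold cell line as a term, which pairs the sensitive and resistant libraries of each line. No replicated test within WM1617 was possible because it has 1 library per state. What depth limits is the low end: a gene at 3 counts or fewer in a library has a ratio known only within a wide interval.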
